A study of Homo sapiens with 2 samples.

Results

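The HOX genes encode homeodomain transcription factors that stand in 4 clusters, HOXA, HOXB, HOXC and HOXD, and were read here on 2 expression arrays of a liver cancer cell line. Members were all probe sets (groups of probes that report 1 value for a transcript) whose platform annotation gives exactly 1 symbol beginning with HOXA, HOXB, HOXC or HOXD and a digit. The rule found 46 of 54613 non-control probe sets, which name 28 coding HOX genes and the antisense RNA HOXA11-AS, 29 of the 19775 genes named on the array. The cells were PLC8024, a human hepatocellular carcinoma (HCC) line, sorted by flow cytometry for absence of the surface marker CD133. One array came from CD133- cells transduced with lentiviral miR-130b and the other from CD133- cells transduced with an empty lentiviral vector. For the miR-130b sample, the source name speaks of a transfection instead. With 1 array in each group there is no replicate error, so differences are described and none was tested. What else separates the 2 cultures cannot be told apart from the vector.

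Within each cluster the HOX genes lie in the order in which they are used along the body axis of the embryo, and genes of the same position number in different clusters (paralogues) derive from a common ancestor. Low position numbers mark anterior domains and high numbers posterior ones. HOX proteins bind DNA together with TALE homeodomain partners of the PBX, MEIS and PKNOX families, retinoic acid starts their expression from the anterior end, and Polycomb and Trithorax complexes keep the clusters silent or active. Adult tissues and cell lines often retain a HOX pattern that reflects where the cells came from. HOXA5 and MEOX2 are known as targets of miR-130a, a family member of miR-130b, in endothelial cells.

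A microRNA recognises targets mainly through its seed, bases 2 to 8. The mature strands of the overexpressed microRNA are shown first, then single strands of microRNAs that lie inside the HOX clusters. These cluster microRNAs are transcribed among the HOX genes, and several are known to repress them. Sequences are RefSeq's on GRCh38.p14, with the seed in capitals.
hsa-miR-130b-3p: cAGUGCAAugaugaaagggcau
hsa-miR-130b-5p: aCUCUUUCccuguugcacuac
hsa-miR-10a-5p: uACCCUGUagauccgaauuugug
hsa-miR-10b-3p: aCAGAUUCgauucuaggggaau
hsa-miR-196a-5p: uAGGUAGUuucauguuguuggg
hsa-miR-196b-5p: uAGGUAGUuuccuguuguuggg
hsa-miR-615-3p: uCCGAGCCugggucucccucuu
The miR-130b-3p strand comes from chr22:21653354-21653375, plus strand, outside all HOX clusters. The miR-10b-5p strand was not at hand, so its seed could not be compared. Among these 7 strands only miR-196a-5p and miR-196b-5p share a seed. In the RefSeq order, MIR196A2 lies between HOXC10 and HOXC9, MIR196A1 between HOXB9 and HOXB13, MIR196B between HOXA9 and HOXA10, and MIR10B between HOXD8 and HOXD4. MIR10A lies within the range of HOXB3, between HOXB4 and HOXB5, and MIR615 within the ranges of HOXC4 and HOXC5. None of the mature microRNAs was analysed here.

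Both arrays had nearly the same median over non-control probe sets, 4.88 in each on the log2 scale. A probe set was taken as measured where its brighter array reached 4.88, the median over both arrays together, which served as an expression floor. In bulk RNA, fewer cells that express a gene and less of its RNA per cell cannot be told apart. Of the HCC identity, all 13 hepatocyte markers with a probe set were measured and their median difference was 0.01. Of these, 2 were at least 2-fold lower with miR-130b, where 1.52% of all measured genes were: ALB, the serum albumin gene, from 11.99 to 10.96 and TTR, a thyroxine carrier gene, from 9.26 to 5.92. The leukocyte antigen gene PTPRC and the endothelial genes CDH5, VWF and KDR lay below the floor in both arrays, and PECAM1, TEK and LYZ were the only measured genes of these 2 cell types. PECAM1 and LYZ stood well above the floor, at 8.51 and 9.77 with the empty vector and 8.72 and 9.46 with miR-130b. TEK had 5.53 and 5.69. The 2 LYZ probe sets ran from -1.72 to -0.32 in log2 difference, and the 4 of PECAM1 from -0.24 to 0.21. Of 9 measured mesenchymal and fibroblast markers, 4 were at least 2-fold lower with miR-130b (VIM, CDH2, COL1A2 and TAGLN). Probe sets disagreed for some of the 9, as the 3 of TAGLN ran from -4.13 to -0.05 in log2 difference. Those of COL1A1, not counted as lower, ran from -1.68 to 0.38. Among 5 biliary markers, KRT19 and EPCAM lay below the floor with miR-130b, KRT19 from 7.05 to 4.02 and EPCAM from 5.25, close to the floor, to 4.09. Both count as measured only through the empty vector array. The other biliary markers did not fall alike: KRT7 differed by 0.18, CFTR by 0.23 and SOX9 by -0.30. The sort marker's own transcript, PROM1, stood at 9.19 with the empty vector and 6.07 with miR-130b, above the floor in both although the cells were sorted as CD133-. The 3' to 5' signal ratio of ACTB, a measure of RNA integrity, was 1.95 with the empty vector and 2.41 with miR-130b. For GAPDH the ratio was 1.37 with the empty vector and 1.52 with miR-130b. The part of RNA integrity in the differences below was not tested.

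No HOX gene differed by 1.5-fold in either direction. Of 28 coding HOX genes, 17 were measured, 0 were lower by 1.5-fold or more with miR-130b and 0 were higher by as much. Across all 13260 measured genes, 2.68% were lower and 0.294% higher by that size. At that background, 0 of 17 is no result about HOX genes as a group. The measured HOX genes ran from -0.35 for HOXC6 to 0.38 for HOXB9 in log2 difference, miR-130b minus empty vector. Their median was 0.09, beside 0.03 over all measured genes. By sign, 12 were higher, 4 lower and 1 equal, which is 70.6% higher beside 56.1% of all measured genes. The only error these arrays offer is how far probe sets of the same gene disagree, an SD of 0.202 on log2 differences over 6047 genes, and it holds no variation between cultures. Within that SD lay 13 of the 17 HOX genes, 76.5%, beside 72.0% of all measured genes.

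**Figure D1:**
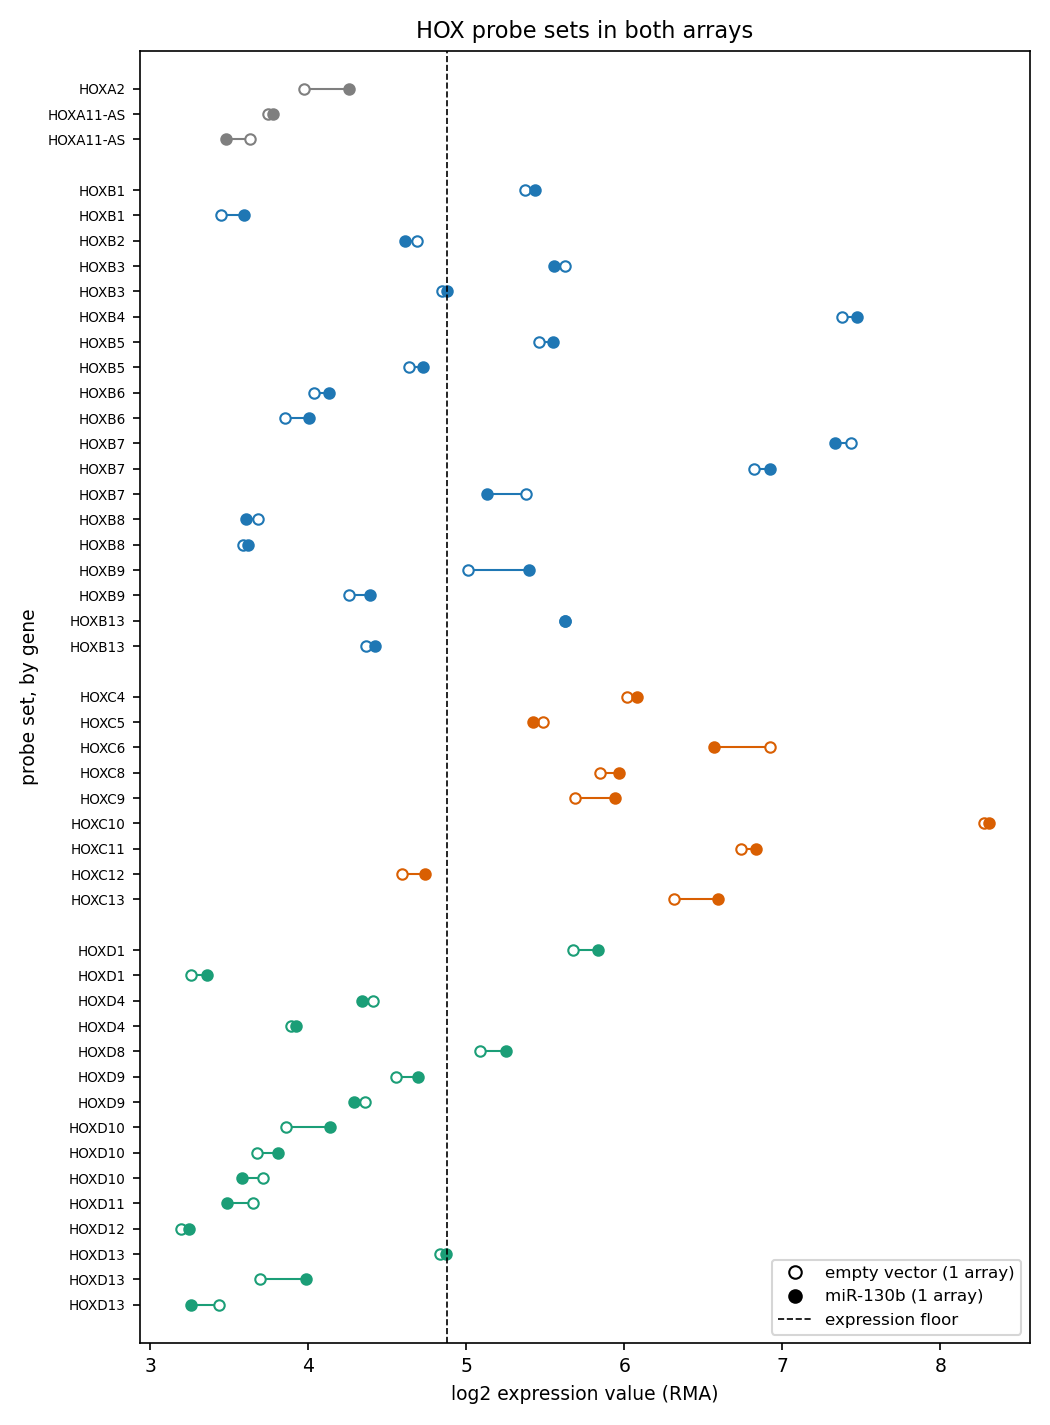
Log2 expression value (x axis) of each of the 46 HOX probe sets (y axis, by cluster and position number) in the empty vector array (open circles) and the miR-130b array (filled circles), with the floor of 4.88 dashed. Every pair of circles lies at most 0.38 apart, and probe sets of different genes cannot be compared in level.

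All 19 probe sets that reached the floor did so in both arrays, so none was counted as measured only through the array where it was brighter. The other 25 coding probe sets stayed below the floor in both, between 3.19 and 4.88. Nearest to the floor from below was HOXB3 in its dimmer probe set, at 4.844 with the empty vector and 4.878 with miR-130b against a floor of 4.881, with the highest HOXD13 probe set close by at 4.84 and 4.87. Just above it lay HOXB9 at 5.01 in the empty vector array. RMA values, the scale of the deposited table, keep some background signal in dim probe sets, which compresses their differences. A value below the floor is therefore not evidence that a gene is silent.

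HOXB was represented by all 10 of its genes, of which 7 were measured. HOXB1, the anterior gene of the hindbrain, stood at 5.37 with the empty vector and 5.43 with miR-130b, a log2 difference of 0.06. HOXB3 stood at 5.63 and 5.55, a difference of -0.07. Both stayed well within the technical SD. HOXB3 overlaps HOXB4 in the RefSeq annotation, so part of their signal may be shared. HOXB4, known for expanding blood stem cells when overexpressed, had 7.38 with the empty vector and 7.47 with miR-130b. HOXB5 had 5.46 and 5.55, and these neighbours showed the same difference of 0.09. A dimmer HOXB5 probe set, below the floor, also differed by 0.09.

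HOXB7, a gene often raised in carcinomas, was the only HOX gene with more than 1 measured probe set. Its 3 measured probe sets did not share a sign, and every other measured HOX gene rests on 1. The brightest stood at 7.43 with the empty vector and 7.34 with miR-130b, the next at 6.82 and 6.92, and the dimmest at 5.38 and 5.13. Their differences of -0.10, 0.10 and -0.25 leave no common direction for HOXB7. HOXB9, the most posterior gene of the main HOXB block, had the highest difference of all members, from 5.01 in the empty vector array to 5.39 in the miR-130b array. That is 0.38 on the log2 scale or 1.30-fold, from a probe set near the floor. Its other probe set, below the floor, differed by 0.13, so both were higher. HOXB13, a prostate and hindgut gene that stands apart from the rest of its cluster, had exactly the same value of 5.63 in both arrays. Such equal values occurred in 1.99% of all measured genes.

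HOXB2, HOXB6 and HOXB8 were not measured. HOXB2 differed by -0.08, the HOXB6 probe sets by 0.10 and 0.15, and the HOXB8 probe sets by -0.07 and 0.03. HOXB8 is the best known target of miR-196, whose sequences are given above, and it stayed between 3.59 and 3.68 in both arrays. The median over the 7 measured HOXB genes was 0.06, with 4 higher, 2 lower and 1 equal.

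Of the 9 HOXC genes, each represented by 1 probe set, 8 were measured. HOXC4, HOXC5 and HOXC6 overlap each other in the RefSeq annotation, so part of their signal may be shared. HOXC4 had 6.02 with the empty vector and 6.08 with miR-130b, and HOXC5 had 5.49 and 5.42. HOXC6, a thoracic gene often raised in tumours, had the lowest difference of all members, at 6.92 with the empty vector and 6.57 with miR-130b. The difference was -0.35 on the log2 scale, or 1.28-fold. Its overlapping neighbours HOXC4 and HOXC5 differed by only 0.06 and -0.06.

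HOXC8 and HOXC9 are thoracic genes that lie next to each other. HOXC8 had 5.85 with the empty vector and 5.97 with miR-130b, a difference of 0.12, and HOXC9 had 5.69 and 5.94, a difference of 0.25. Both were higher, HOXC9 by more than the technical SD. HOXC10, a hindlimb and lumbar gene, had 8.28 and 8.31 and differed by 0.03. HOXC11 had 6.74 and 6.83, a difference of 0.10. HOXC13, a gene of hair and nail development, had 6.31 with the empty vector and 6.59 with miR-130b, 0.28 on the log2 scale or 1.22-fold. HOXC12, between HOXC11 and HOXC13, was the 1 HOXC gene below the floor, at 4.59 and 4.74. The 8 measured HOXC genes had a median of 0.08, with 6 higher and 2 lower.

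HOXD had 2 of 8 genes measured. HOXD1 stood at 5.67 with the empty vector and 5.84 with miR-130b, and HOXD8 at 5.09 and 5.25, each differing by 0.16. HOXD4, HOXD9, HOXD10, HOXD11, HOXD12 and HOXD13 had no probe set at the floor. HOXD10, HOXD11 and HOXD13 act in the limb and genital bud. The 3 HOXD10 probe sets differed by 0.28, 0.13 and -0.13, and the 3 HOXD13 probe sets by 0.29, 0.03 and -0.18. Probe sets of these dim genes thus disagreed in sign, and HOXD9 and HOXD4 did the same. Of 13 coding genes with several probe sets, over all clusters, 5 had probe sets of 1 sign and 8 did not, HOXB13 with its equal value counted among the latter.

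The HOXA cluster can hardly be described. Of its 11 coding genes, 10 had no probe set of their own under the annotation used and were not analysed here, HOXA5 among them, nor was HOXD3. HOXA2, a gene of the hindbrain and branchial arches, lay below the floor, at 3.97 with the empty vector and 4.26 with miR-130b. The antisense RNA HOXA11-AS had 3.75 and 3.78 in 1 probe set and 3.63 and 3.48 in the other, all below the floor. A further 4 probe sets carry a HOX symbol together with other symbols, and 3 of these name HOXD3 and HOXD4 jointly. They were left out because the rule asks for exactly 1 symbol.

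Ordered by position number, measured genes were found at 11 of 13 positions, and at positions 2 and 12 there was none. The 3 measured genes of positions 1 to 3 had a median difference of 0.06, the 8 of positions 4 to 8 a median of 0.08, and the 6 of positions 9 to 13 a median of 0.17. Among those 6 posterior genes, 5 were higher and HOXB13 was equal, where 56.1% of all measured genes were higher. At position 9, the paralogues HOXB9 and HOXC9 were both higher, by 0.38 and 0.25. At position 13, HOXC13 was higher by 0.28 while HOXB13 did not differ. Without probe sets of the suffixes _x_at and _s_at, which can match related transcripts, HOXC13 drops out and the posterior median was 0.10. It was 0.12 without a floor, and 0.03 with a floor at the 75th percentile, where only HOXC10 was left. Whether positions differ cannot be tested with 1 array per group.

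**Figure D2:**
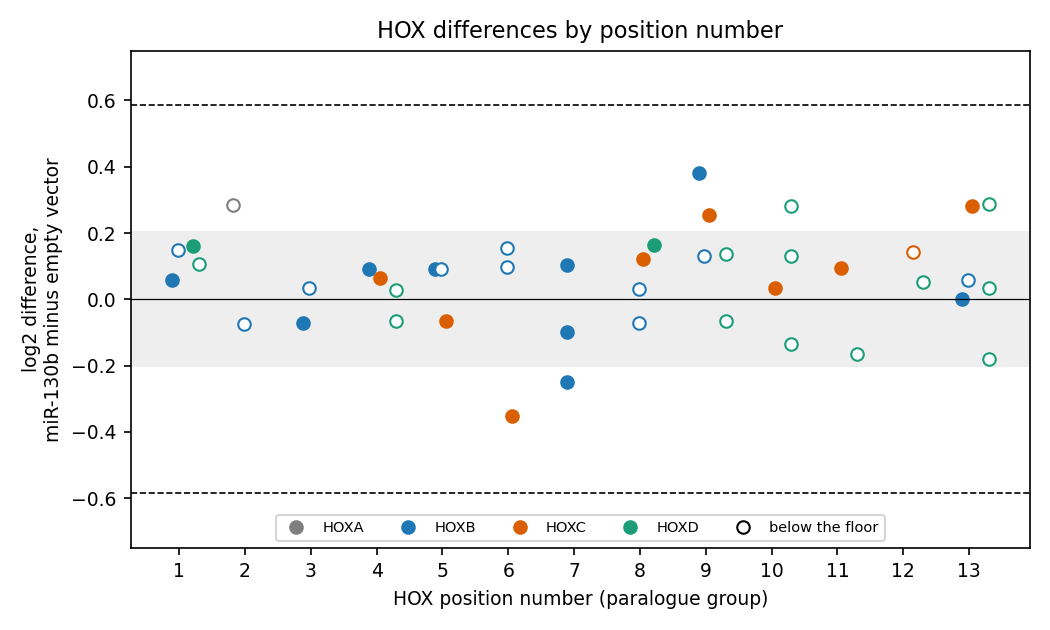
Log2 difference, miR-130b minus empty vector (y axis), of each coding HOX probe set by position number (x axis), coloured by cluster, with open circles below the floor. The grey band is the technical SD of 0.202 to either side of 0 and dashed lines mark 1.5-fold, which no probe set reaches.

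Over all 44 coding HOX probe sets, whether measured or not, 0 reached 1.5-fold, where 1.56% of all non-control probe sets were lower and 0.231% higher by that size. By sign, 31 were higher, 12 lower and 1 equal. That is 70.5% higher, beside 51.5% of all non-control probe sets, with medians of 0.08 and 0.02. Below the floor, 18 of 25 HOX probe sets were higher, 72.0% beside 49.8% of all non-control probe sets below the floor. Probe sets of 1 gene and overlapping neighbours share transcripts, so these signs are not independent.

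**Figure D3:**
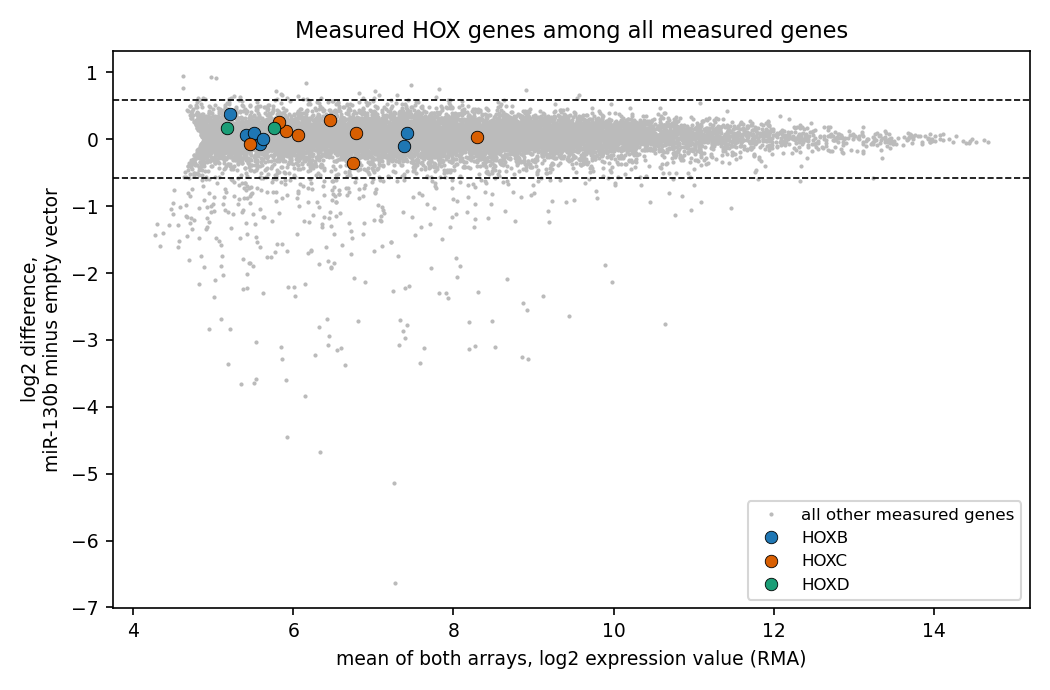
Log2 difference, miR-130b minus empty vector (y axis), against the mean of both arrays (x axis, log2 RMA value) for all measured genes (grey) and the 17 measured HOX genes (coloured by cluster). Dashed lines mark 1.5-fold, and all HOX genes lie between them while the grey points reach far below.

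Of 8 TALE partner genes with a probe set, 6 were measured and had a median of 0.06. The 0 of them beyond 1.5-fold stands beside the 2.68% lower and 0.294% higher of all measured genes, so this count, like those of 0 in the lists that follow, is near the background and is no result about the list. PBX2, which carries HOX proteins to composite DNA sites, had 8.19 with the empty vector and 8.33 with miR-130b, but its 4 measured probe sets ran from -0.26 to 0.15. For MEIS3 the brightest probe set gave 0.24 and the other -0.07. PBX3 and PKNOX1 differed by 0.07 and 0.04. MEIS1, the partner best known from HOX-driven leukaemia, was below the floor, at 4.48 and 4.53.

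Complexes that hold HOX clusters active or silent were represented by 16 of 16 listed activating genes and 20 of 24 listed silencing genes. Of 15 measured Trithorax and other activating regulators, 0 reached 1.5-fold, where 2.68% of all measured genes were lower and 0.294% higher by that size. The median of the 15 was 0.06. The lowest was KDM6A, which removes the H3K27 methyl mark from HOX loci, at 8.61 with the empty vector and 8.20 with miR-130b. This KDM6A probe set differed by -0.41 and a dimmer one by -0.76, so both were lower and the dimmer one passed 1.5-fold. DOT1L, the H3K79 methyltransferase, gave 0.28 and -0.02 in its pair of probe sets. KMT2C was higher in all 3 measured probe sets, by 0.12 to 0.22, and ASH2L differed by -0.19. All 20 Polycomb and silencing genes with a probe set were measured, with a median of 0.06. Again 0 were beyond 1.5-fold, beside the same shares over all measured genes. PHC3, a subunit of Polycomb complex PRC1, was higher in all 4 of its probe sets, by 0.23 to 0.32. The brightest RBBP4 probe set differed by -0.33, but its 6 probe sets ran up to 0.21. The PRC1 subunits CBX2 and PCGF1 differed by 0.27 and 0.21, with other probe sets at -0.11 and -0.04.

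Among retinoid genes, 1 probe set of CYP26B1 stood out. CYP26B1, an enzyme that degrades retinoic acid, stood at 6.31 with the empty vector and 4.77, below the floor, with miR-130b. This brightest probe set differed by -1.54, and it counts as measured only through the empty vector array. Set against the floor it was 2.70-fold lower. The other measured CYP26B1 probe set differed by -0.08. The mean of both was -0.81. RDH10, which makes the precursor of retinoic acid, differed by 0.34, with 0.03 in the lowest of its 3 probe sets. RXRA, a partner of the retinoic acid receptors, gave -0.30 and 0.02 in its pair of probe sets, and the retinol transporter gene STRA6 by -0.14. The 13 measured retinoid genes had a median of 0.01, with CYP26B1 as the 1 gene lower by 1.5-fold and 0 higher. Of all measured genes, 2.68% were lower and 0.294% higher by that size, and 1 gene is no result about the list.

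Homeobox genes related to HOX but outside the clusters showed no gene beyond 1.5-fold among 6 measured, with a median of 0.04. By that size, 2.68% of all measured genes were lower and 0.294% higher. GBX1 differed by 0.25, CDX1, an intestinal regulator of HOX genes, by 0.14, EVX1 by -0.07 and CDX2 by 0.05. MEOX2, the miR-130a target named above, lay below the floor, and its brightest probe set had the same value of 3.26 in both arrays. Over its probe sets the difference ran from 0 to 0.03, and a decrease was not detectable that far below the floor. Among non-coding RNAs of the clusters, 3 of 10 were measured. HOXA-AS2 had 6.08 with the empty vector and 6.19 with miR-130b, HOTTIP had 6.68 in both, and HAGLR, from HOXD, had 6.68 and 6.63. HOTAIR, transcribed from HOXC, was below the floor at 3.06 and 3.27.

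Genes flanking the clusters had a median of -0.01 over 23 measured. CBX5, which encodes the heterochromatin protein HP1 alpha and neighbours HOXC, was 1.53-fold lower, from 9.64 in the empty vector array to 9.03 in the miR-130b array. Its 5 measured probe sets ran from -0.61 to 0.10, and their mean was -0.35, short of 1.5-fold. No other flanking gene reached 1.5-fold, where 2.68% of all measured genes were lower and 0.294% higher by that size. ATP5MC2 and SMUG1, also beside HOXC, differed by -0.36 and -0.26, and SNX10, beside HOXA, by 0.34.

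**Figure D4:**
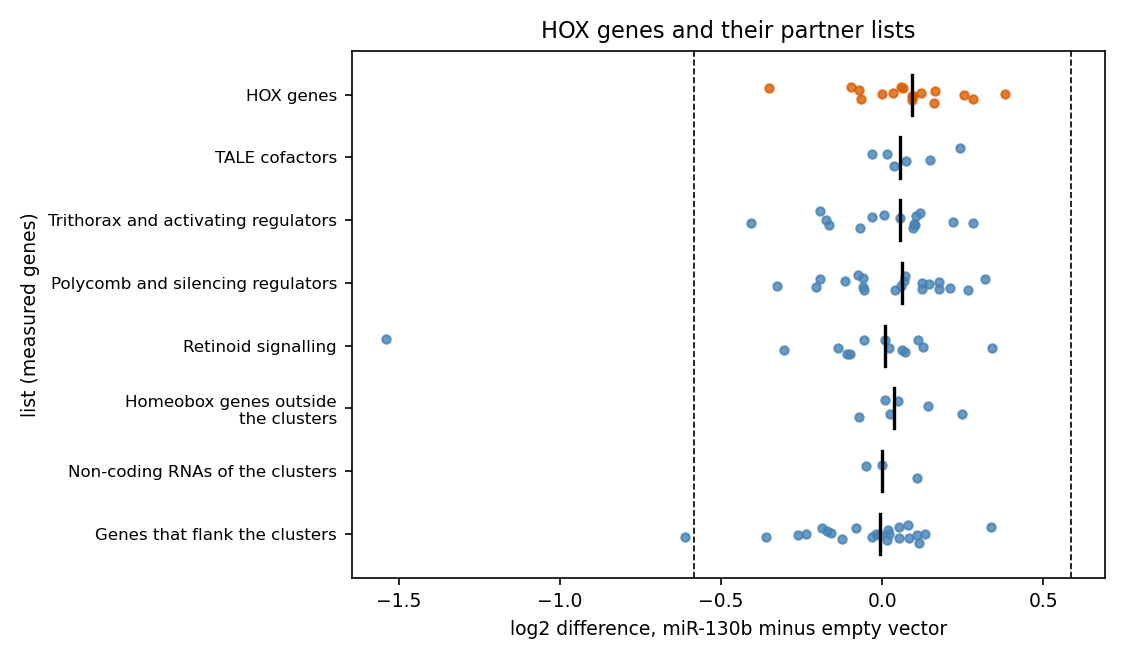
Log2 difference, miR-130b minus empty vector (x axis), of the measured genes (points, each by its brightest probe set) of HOX and of 7 related lists (y axis), with black bars at the medians and dashed lines at 1.5-fold. CYP26B1 at -1.54 and CBX5 at -0.61 are the points past a dashed line, and all list medians lie between -0.01 and 0.09.

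In promoters, RefSeq windows of 300 bases, 250 before to 50 after the start, were at hand for 12 of the 29 member genes. Their CpG ratio, observed over expected, had a median of 0.755 beside 0.579 over all 35116 windows, and their GC content a median of 56.2% beside 58.7%. The windows of HOXC4 and HOXC5 are the same stretch of DNA, as both genes start at the same position in RefSeq. The composite motif of PBX and HOX proteins, TGATNNAT, was searched on both strands because HOXB1 is known to maintain its own expression through such a site. It occurred in 3 of the 12 windows and in 7.40% of all windows of that length. The matches, 8 letters in capitals within a stretch of 30 bases, were these.
HOXA2: cactgtctgttTGATTGATccaaaaaagtc
HOXB1: tgcttggggggTGATGGATgggcgctgggg
HOXD11: gcaattcatctTGATTGATtctggtggtaa
The 30 bases of HOXB1 are chr17:48531118-48531147 on the minus strand, and the 8-letter match within them begins 125 bases before the start. The 30 bases of HOXA2 are chr7:27102779-27102808 on the plus strand and those of HOXD11 are chr2:176107202-176107231 on the minus strand, both antisense to their gene. Of the 3 genes, HOXB1 was measured and differed by 0.06, while HOXA2 and HOXD11 were below the floor. A match of letters is a description and does not show binding.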

How the data were processed

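Total RNA of 2 samples, 1 per group, was hybridised to 1 array each. The authors deposited log2 expression values per probe set, made with RMA per the submitters' processing notes. The version and settings of RMA, and whether other arrays entered it, are not known here. Sample groups came from the titles. Probe sets were named by GEO's platform annotation: of 54613 non-control ones, 41091 had 1 symbol, 1801 several and 11721 none. All 46 HOX probe sets matched the RefSeq table (GRCh38.p14) by Entrez identifier and no symbol changed.

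The log2 difference was computed per probe set. A gene was measured if a probe set reached the floor in its brighter array, and its brightest such probe set represented it. Counts at 1.5-fold and 2-fold are rules of size. The number of arrays limits the precision. All measured HOX genes are named, and from each list up to 4 measured members by absolute difference, those beyond 1.5-fold and MEOX2; other genes were chosen after their values were seen. Members and lists were chosen with earlier results of these data known. The HOX counts, medians and gene differences and those of the related lists were recomputed without a floor, with a higher floor (75th percentile of all values), with probe sets averaged per gene, without _x_at and _s_at probe sets, and after loess centring (span 0.3). The computation was tested on simulated data, with planted shifts in bright genes that were larger than any HOX difference. That test does not bear on differences as small as those of the HOX genes. Tools were Python 3.11.15, numpy 2.4.6, pandas 2.3.3, statsmodels 0.14.6 and matplotlib 3.10.9.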

Additional observations from a re-analysis of the deposited data

How the results depend on the processing

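The count of HOX genes at least 1.5-fold lower or higher was 0 under all 5 alternatives. The number of HOX genes measured rose to 28 when no floor was set, and fell to 3 under the 75th percentile floor (6.98) and to 11 without _x_at and _s_at probe sets, since each of these changes which probe sets are kept. The median HOX difference ran from 0.03 with the higher floor to 0.09, and was 0.07 after loess centring. In the 65 gene values recomputed, no measured HOX gene went from higher to lower or back, or moved by more than the technical SD. Most of these values could not move, so they lend the differences no support. The other floors and the suffix rule kept the same probe set of a gene or dropped the gene. Averaging could change only HOXB7, from -0.10 to -0.08. Only loess centring could change all 17 genes. HOXB13, equal in both arrays, differed by -0.02 after loess centring. With the higher floor, HOXB had a median of -0.0027 from HOXB4 and HOXB7, and HOXD and positions 1 to 3 had no gene left. With the higher floor, 0 retinoid genes were 1.5-fold lower. CYP26B1 differed by -0.81 and CBX5 by -0.35 with the mean of probe sets. Other named list genes also moved by more than the technical SD. Without _x_at and _s_at probe sets, MEIS3 went from 0.24 to -0.07, PCGF1 from 0.21 to -0.04 and RBBP4 from -0.33 to 0.03. With the mean of probe sets, CBX2 went from 0.27 to 0.03 and RBBP4 to -0.08. No paired analysis was possible because each group holds 1 array.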
